A study of Mus musculus with 15 samples.

Results

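The genes of phototransduction, the light response of rod and cone photoreceptors, were followed through 5 groups of mouse retina. The members are 39 genes chosen by symbol from the 54532 genes of the count and FPKM tables: 12 used mainly by rods, 11 used mainly by cones and 16 used by both. All 39 symbols matched 1 gene ID each, and all 39 passed the filter on low counts.

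In both cell types a photopigment activates the G protein transducin, which relieves the cGMP phosphodiesterase of its inhibitory subunit. The fall of cGMP closes a cation channel in the outer segment, and arrestin, a kinase, a GTPase-accelerating complex and guanylate cyclase with its activating proteins bring the cell back to the dark state. Rods and cones use separate genes for most steps of activation, and they share many genes of recovery, of the disc rim and of the retinoid cycle. The homeodomain factor CRX acts in both cell types, and NRL and NR2E3 set the rod pattern of transcription.

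All libraries came from retina of wild-type C57BL/6 mice labelled as 5 weeks old, with 3 libraries a group. WT retinas were from naive mice. The other 4 groups had both optic nerves crushed under xylazine and ketamine and were collected 2 days later: ONC had the crush alone, ONC-F was also needled at GB20, ONC-J at BL1, and ONC-S at GV16, the point taken as the sham, with 3 treatments each. The crush cuts ganglion cell axons and leaves photoreceptors without direct injury. The methods describe anesthesia before needling at GB20 and BL1, and neither anesthesia nor needling for GV16. They name no anesthesia after the crush for ONC, so needling at GB20 or BL1 and the anesthesia before it cannot be told apart. They do not say whether a library pools mice, so p-values measure the spread between libraries. The methods divide the mice into 4 groups, fewer than the series holds, and the ONC-S samples were registered separately from the rest. The labels name no run or date, so a batch of the ONC-S libraries and the needling point cannot be told apart.

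Counts assigned to genes ran from 14482435 to 26112762 per library, and the members took 4.88% to 5.61% of them. Of 12 ganglion cell genes, 10 were called lower in ONC than in WT, where 1.16% of all genes were called lower. WT library 1 stood apart with a summed level of 16 lens genes of 2869 CPM, against 4.0 to 130.5 in the other 14 libraries. Of all 19259 genes tested, 2.11% were called in ONC against WT, 0.00519% in ONC-F against ONC, 0.125% in ONC-J against ONC and 14.5% in ONC-S against ONC, so ONC-S was the treated group that stood apart from ONC. Levels are given as CPM, counts scaled to the TMM size of the library, within a gene, and as FPKM, per length, between genes. A gene was called at a Benjamini-Hochberg adjusted p under 0.05 over all genes tested. In whole retina, fewer cells of a type and less RNA per cell cannot be told apart.

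Rod transcripts exceeded their cone counterparts per length in every pair examined. In WT retina the mean rod to cone FPKM ratio ran from 2.30 for the arrestins Sag and Arr3 to 55.3 for the transducin alpha subunits Gnat1 and Gnat2. Gnat1 was the most abundant member, at 3333 ± 127 FPKM (mean ± SD, n = 3 libraries, here and below), followed by the disc rim protein genes Prph2 (1714 ± 31.7) and Rom1 (1182 ± 58.0). Gnb1 (899 ± 30.0), which encodes the rod transducin beta subunit and is also used by other retinal cells, came next. This order and the ratios rest on the lengths implied by the FPKM values. These were 8.94 kb for Sag, 2.37 kb for Arr3 and 1.53 kb for Rom1. In CPM, which takes no account of length, Sag (mean 3910) stood above Rom1 (mean 1819) in WT. Among cone genes Gnb3, the cone transducin beta subunit that ON bipolar cells also use, stood at 209 ± 7.82 FPKM, Arr3 at 189 ± 6.19 and the short-wave opsin gene Opn1sw at 169 ± 16.7. The spreads of the last pair overlapped. The cone channel subunits were the lowest members, Cnga3 at 3.07 ± 0.56 and Cngb3 at 4.03 ± 0.22 FPKM, and rested on 160 to 359 and 245 to 441 counts per library.

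After crush alone, no phototransduction gene passed the main test. By edgeR's quasi-likelihood test, 0 of 39 members were called in ONC against WT, against 2.11% of all genes, and 5 had an unadjusted p under 0.05. With DESeq2 1 member was called, Arr3, the gene of cone arrestin, which was lower in ONC. The shares of all genes are given for edgeR's calls at an adjusted p only, not for DESeq2 or for unadjusted p. The log2 fold change of Arr3 was -0.29 ± 0.08 (± SE here and below), with an adjusted p of 0.0687 by edgeR's quasi-likelihood test. The median log2 fold change was -0.10 for rod genes, -0.11 for cone genes and -0.08 for shared genes, beside -0.0023 for all genes tested, and 33 of 39 members had a negative value. Library 2 of the ONC group had the lowest mean rod level of the 15 libraries, 0.23 below the WT mean on the log2 scale. The same library had the highest summed level of 12 reactive glia genes, 825 CPM against 242 to 642 in the other 14, and of 12 microglia genes, 110.1 CPM against 65.1 to 95.5. The part of these cells in its photoreceptor levels was not tested.

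Needling at GB20 or BL1 after crush was followed by few called differences in these genes. In ONC-F against ONC 0 of 39 members were called by edgeR's quasi-likelihood test, against 0.00519% of all genes, and 6 had an unadjusted p under 0.05. DESeq2 called 2, Guca1a and Gnb5, both higher. In ONC-J against ONC edgeR called 2 of 39, against 0.125% of all genes, and these were again Guca1a and Gnb5, both higher. Guca1a encodes GCAP1, a calcium sensor that activates guanylate cyclase, and Gnb5 encodes the G protein beta subunit that partners RGS9 in photoreceptors.

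Guca1a read 684, 639 and 606 CPM in the WT libraries, 656, 509 and 574 in ONC, 889.6, 769 and 759.6 in ONC-F, 849.6, 818 and 713 in ONC-J and 1009, 944 and 895 in ONC-S. All 9 libraries of needled mice were above all 6 of WT and ONC, and the ONC-S libraries were the highest. The share of all genes separated in this way was not counted, here or for Gnb5, and both genes were followed because of their calls. Its log2 fold change against ONC was 0.48 ± 0.09 in ONC-F (adjusted p = 0.112, edgeR's quasi-likelihood test), 0.45 ± 0.09 in ONC-J (adjusted p = 0.0425) and 0.71 ± 0.09 in ONC-S (adjusted p = 3.78e-05). Gnb5 read 689.6, 684 and 664 CPM in the WT libraries, 711, 619 and 642 in ONC, 922, 765 and 819 in ONC-F, 873, 906 and 822 in ONC-J and 1050.4, 901 and 865 in ONC-S. The needled libraries were again all above those of WT and ONC, and those of ONC-S overlapped ONC-F and ONC-J. The log2 fold change of Gnb5 against ONC was 0.35 ± 0.08 in ONC-F (adjusted p = 0.219, edgeR's quasi-likelihood test), 0.40 ± 0.08 in ONC-J (adjusted p = 0.0403) and 0.51 ± 0.08 in ONC-S (adjusted p = 0.000199). Against WT, Gnb5 was called higher in ONC-F (log2 fold change 0.30 ± 0.08), where 2.01% of all genes were called, and in ONC-J (0.35 ± 0.08), where 3.61% were. Neither gene passed the test between ONC-S and ONC-F or ONC-J, with log2 fold changes of 0.24 and 0.26 for Guca1a and 0.17 and 0.11 for Gnb5. The ONC-J calls were narrow: without ONC library 2 the adjusted p by edgeR's quasi-likelihood test was 0.159 for Guca1a and 0.154 for Gnb5, without ONC library 3 it was 0.18 for both, without ONC-J library 1 it was 0.164 and 0.113, and without ONC-J library 2 it was 0.205 for both. Without WT library 2 it was 0.0537 and 0.0511, and without ONC-F library 3 it was 0.0506 and 0.0508. Guca1a alone was also lost without ONC-F library 2 (adjusted p = 0.0508, edgeR) and without ONC-S library 2 (0.0616). The partner of Guca1a, Guca1b, which encodes GCAP2, gave 0.12 ± 0.06, 0.02 ± 0.06 and 0.03 ± 0.06 in the 3 contrasts and was called in none. Gnb5 overlaps the annotated gene Gm48677 on the opposite strand, and the strand setting of the counting is not stated. These 3 contrasts share the ONC libraries.

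**Figure D1:**
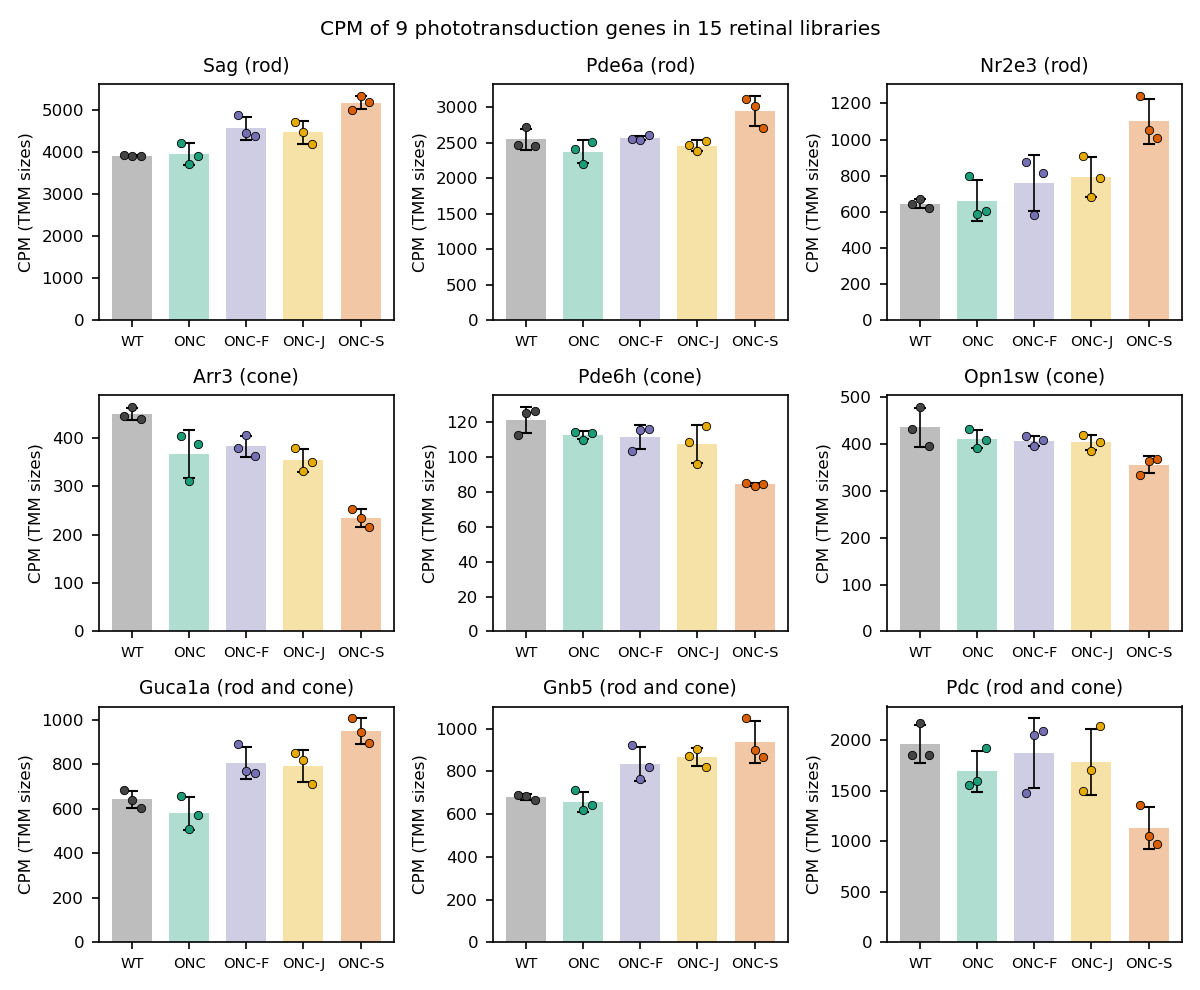
CPM on TMM library sizes (vertical axis) of 9 members in the 5 groups (horizontal axis). Points are single libraries, bars are means of 3 libraries and error bars are SD. Arr3, Pde6h, Opn1sw and Pdc are lower in ONC-S than in every other library, Sag and Nr2e3 are higher, for Pde6a ONC-S library 3 lies just below WT library 2, and Guca1a and Gnb5 are higher in all 3 needled groups than in WT and ONC. The share of all genes with each of these patterns was not counted.

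After needling at GV16, 11 rod and shared genes rose against crush alone, and 4 cone genes and 1 shared gene fell. In ONC-S against ONC, edgeR's quasi-likelihood test called 5 of 12 rod genes higher and 0 lower, 0 of 11 cone genes higher and 4 lower, and 6 of 16 shared genes higher and 1 lower, where 7.6% of all genes were called higher and 6.89% lower. The median log2 fold change was 0.13 for rod genes, -0.19 for cone genes and 0.15 for shared genes, beside -0.01 for all genes tested. Against WT, where 11.6% of all genes were called higher and 11.7% lower, 5 rod genes were higher and 2 lower, 0 cone genes were higher and 5 lower, and 6 shared genes were higher and 1 lower. Against the mean of the 3 other injured groups, where 11.1% were called higher and 10.3% lower, the counts were 5 and 1 for rod genes, 0 and 5 for cone genes and 8 and 1 for shared genes. Against ONC-F, where 7.6% of all genes were called higher and 7.03% lower, 3 rod and 4 shared genes were higher, and 1 rod, 3 cone and 2 shared genes were lower. Against ONC-J, where the shares were 6.62% and 6.28%, 5 rod and 5 shared genes were higher, and 1 rod, 3 cone and 1 shared gene were lower. In 11 members all 3 ONC-S libraries were above the 9 other injured libraries and in 4 all were below them, beside 8.21% and 6.87% of all genes. All these contrasts share the ONC-S libraries. The counts of ONC-S against ONC rest partly on single libraries: 3 rod genes were higher without ONC library 2 or without ONC-S library 1, and 2 cone genes were lower without ONC-S library 1 or without ONC-S library 2. Against WT, 2 rod genes were higher without WT library 1 or 3 or ONC-S library 1 or 2, and 1 was lower without WT library 2 or 3 or ONC-S library 3. Without WT library 1, the one with lens transcripts, the counts against WT were 2 higher and 2 lower for rod genes, 0 and 5 for cone genes and 4 and 1 for shared genes, and in ONC against WT 0 members were called by edgeR. Against the other injured groups 0 rod genes were lower without ONC-S library 1 or 3, 3 cone genes were lower without ONC-S library 2, 5 shared genes were higher without ONC-S library 1, and 2 were lower without ONC library 2 or ONC-J library 2.

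**Figure D2:**
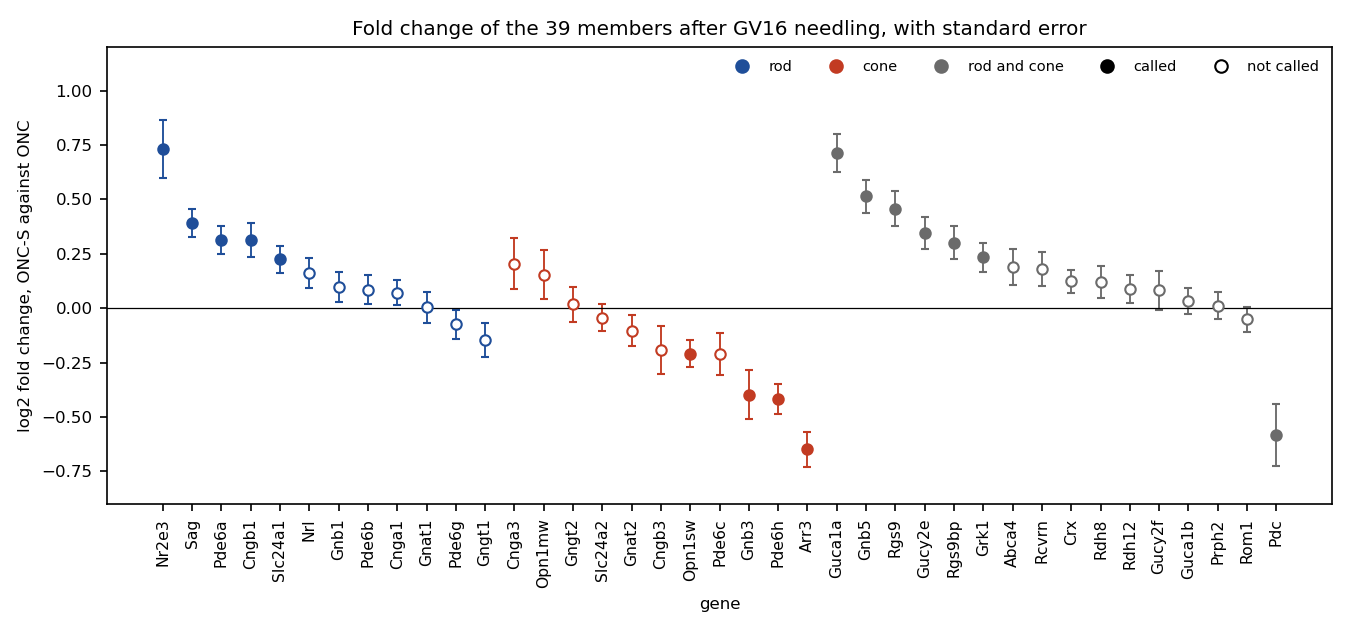
Log2 fold change of ONC-S against ONC (vertical axis) for each of the 39 members (horizontal axis), ordered by size within rod, cone and shared genes. Bars are standard errors and filled points are called at an adjusted p under 0.05 by edgeR's quasi-likelihood test. The called rod genes lie between 0.22 and 0.73, the called cone genes between -0.65 and -0.21, and Pdc at -0.59 is the called shared gene below 0.

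In rods, the called increases covered arrestin, a catalytic subunit of the phosphodiesterase, the channel, the cation exchanger and a transcription factor. Sag, the gene of rod arrestin, which mouse cones also contain, read 3928, 3903 and 3900.3 CPM in the WT libraries, 4222, 3713 and 3903 in ONC, 4865, 4438 and 4367 in ONC-F, 4718, 4478 and 4186 in ONC-J and 5001, 5326 and 5183 in ONC-S. The 3 ONC-S libraries were the highest of the 15, although ONC-F library 1 at 4865 CPM came close to the lowest of them. Against ONC the log2 fold change was 0.39 ± 0.06, or 31.0% more, with an adjusted p of 0.000485 by edgeR's quasi-likelihood test. Nr2e3, the nuclear receptor that represses cone genes in rods, read 642, 674 and 622 CPM in the WT libraries, 797, 590.0 and 602 in ONC, 877, 582 and 812 in ONC-F, 907, 682 and 789.6 in ONC-J and 1242, 1050.5 and 1009 in ONC-S. All ONC-S libraries were above the other 12, and the spread within the other injured groups was wide for this gene. Its log2 fold change was 0.73 ± 0.13, or 66.0% more, with an adjusted p of 0.00111 by edgeR's quasi-likelihood test. Nrl, the gene of the leucine zipper factor that directs rod fate, gave 0.16 ± 0.07 and was not called (adjusted p = 0.122, same test).

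Pde6a, the alpha catalytic subunit of rod phosphodiesterase, read 2468, 2719 and 2461 CPM in the WT libraries, 2416, 2199 and 2511 in ONC, 2559, 2547 and 2606 in ONC-F, 2474, 2384 and 2531 in ONC-J and 3124, 3017 and 2715 in ONC-S. ONC-S libraries 1 and 2 were clearly above the rest, and ONC-S library 3 was just below WT library 2. Against ONC it gave a log2 fold change of 0.31 ± 0.06 with an adjusted p of 0.00265 by edgeR's quasi-likelihood test. The beta catalytic subunit gene Pde6b, whose product pairs with that of Pde6a, gave 0.09 ± 0.07, and the inhibitory subunit gene Pde6g gave -0.07 ± 0.07, both not called. Cngb1, the modulatory channel subunit, read 1057, 1106 and 981 CPM in the WT libraries, 1061, 867 and 1021 in ONC, 1071, 949 and 1000.5 in ONC-F, 1093, 905 and 992 in ONC-J and 1292, 1208 and 1160.0 in ONC-S. Every ONC-S library was above the other 12. Its log2 fold change was 0.31 ± 0.08 (adjusted p = 0.0115, edgeR's quasi-likelihood test), while the pore-forming subunit gene Cnga1 gave 0.07 ± 0.06 and was not called. Slc24a1, the rod exchanger of sodium, calcium and potassium, read 1449, 1471 and 1436 CPM in the WT libraries, 1485, 1299.8 and 1496 in ONC, 1514, 1412 and 1529 in ONC-F, 1429, 1408 and 1461 in ONC-J and 1746, 1721 and 1533 in ONC-S. Its ONC-S libraries were the 3 highest, with library 3 level with ONC-F library 3. Its log2 fold change was 0.22 ± 0.06 (adjusted p = 0.0191, edgeR's quasi-likelihood test). Without ONC library 2 the adjusted p by edgeR was 0.0666 for Cngb1 and 0.103 for Slc24a1. Without ONC-S library 1 it was 0.058 and 0.0822, and without ONC-S library 2 that of Slc24a1 was 0.0887.

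None of the rod transducin genes was called in ONC-S against ONC. Gnat1 gave 0.00 ± 0.07, Gnb1 0.10 ± 0.07 and Gngt1, the gamma subunit gene, -0.15 ± 0.08, all as log2 fold changes. Gngt1 read 732, 759 and 686 CPM in the WT libraries, 652, 571 and 692 in ONC, 689, 742 and 707 in ONC-F, 734, 611 and 702 in ONC-J and 526, 637 and 567 in ONC-S. The ONC-S libraries overlapped those of ONC and of ONC-J and were below those of WT and ONC-F. Gngt1 was called lower in ONC-S against WT (log2 fold change -0.33 ± 0.08, adjusted p = 0.00489, edgeR's quasi-likelihood test) and against the other injured groups (-0.23 ± 0.07, adjusted p = 0.0161), the latter lost without ONC-S library 1 (0.127) or 3 (0.066). Pde6g read 1595, 1680.2 and 1700.2 CPM in the WT libraries, 1555, 1364 and 1567 in ONC, 1484, 1643 and 1552 in ONC-F, 1472, 1371 and 1566 in ONC-J and 1476, 1465 and 1323 in ONC-S. Its ONC-S libraries were all below those of WT and overlapped those of ONC, and it was called lower against WT (-0.22 ± 0.07, adjusted p = 0.02, edgeR's quasi-likelihood test). That call was lost without WT library 2 (adjusted p = 0.0582, edgeR), WT library 3 (0.0705) or ONC-S library 3 (0.1).

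Among the 11 cone genes, the one with the largest change in ONC-S against ONC was that of cone arrestin. Arr3 read 445, 464 and 439 CPM in the WT libraries, 403, 311 and 387 in ONC, 379.6, 406 and 363 in ONC-F, 379, 332 and 350.3 in ONC-J and 252, 234 and 216 in ONC-S. Every ONC-S library was below the other 12, and all 12 injured libraries were below those of WT. In ONC-S the mean was 234 ± 18.1 CPM against 367 ± 49.1 in ONC and 449 ± 13.3 in WT. The log2 fold change was -0.65 ± 0.08 against ONC (adjusted p = 4.48e-05, edgeR's quasi-likelihood test), -0.71 ± 0.08 against ONC-F, -0.59 ± 0.08 against ONC-J and -0.94 ± 0.08 against WT. Arr3 was also called lower in ONC-J against WT (-0.35 ± 0.08, adjusted p = 0.0159, edgeR's quasi-likelihood test), while ONC-F against WT gave -0.23 ± 0.08 (adjusted p = 0.177).

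Pde6h, the inhibitory subunit of cone phosphodiesterase, read 112, 125 and 126 CPM in the WT libraries, 114, 109.8 and 114 in ONC, 104, 116 and 116 in ONC-F, 109, 95.9 and 118 in ONC-J and 85.2, 83.4 and 84.6 in ONC-S. The 3 ONC-S libraries were nearly equal and all below the other 12. Against ONC its log2 fold change was -0.42 ± 0.07, with an adjusted p of 0.000425 by edgeR's quasi-likelihood test. Pde6c, the cone catalytic subunit, read 123, 145 and 143 CPM in the WT libraries, 126, 147 and 159 in ONC, 129.5, 148 and 159 in ONC-F, 143, 145 and 171 in ONC-J and 137, 122 and 115 in ONC-S. Its groups overlapped, its log2 fold change against ONC was -0.21 ± 0.10 (adjusted p = 0.155, edgeR's quasi-likelihood test), and it was called lower against the other injured groups (-0.24 ± 0.08, adjusted p = 0.033). The latter call was lost without ONC-F library 3 (adjusted p = 0.0542, edgeR), ONC-J library 3 (0.0519), ONC-S library 2 (0.109) or ONC-S library 3 (0.184). Opn1sw read 431, 479 and 396 CPM in the WT libraries, 431, 391 and 409 in ONC, 416, 395 and 408 in ONC-F, 419, 385 and 404 in ONC-J and 334, 364 and 367 in ONC-S. The ONC-S libraries were below the other 12. This gave a log2 fold change against ONC of -0.21 ± 0.06 (adjusted p = 0.0302, edgeR's quasi-likelihood test), and one against WT of -0.29 ± 0.06 (adjusted p = 0.00204). The call against ONC was lost without ONC library 1 (adjusted p = 0.119, edgeR), ONC library 3 (0.0861), ONC-S library 1 (0.143) or ONC-S library 2 (0.0633). Opn1sw overlaps Calu on the opposite strand. The middle-wave opsin gene Opn1mw gave 0.15 ± 0.11 against ONC and was not called in any comparison.

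Gnb3 read 534, 574 and 555 CPM in the WT libraries, 549.9, 848 and 608 in ONC, 586, 616 and 606 in ONC-F, 556, 591 and 629.9 in ONC-J and 446, 507 and 570.2 in ONC-S. ONC library 2 was far above the other 14, and ONC-S library 3 lay inside the range of WT and ONC. The log2 fold change of Gnb3 against ONC was -0.40 ± 0.11 (adjusted p = 0.0215, edgeR's quasi-likelihood test), and without ONC library 2 it was -0.19 (adjusted p = 0.151). The adjusted p was 0.102 without ONC-S library 1 and 0.0645 without ONC-S library 2 (edgeR). Of 11 bipolar cell genes 4 were also called lower in that contrast and 0 higher, beside 6.89% and 7.6% of all genes, with Pcp2 at -0.66, Grm6 at -0.50 and Isl1 at -0.35 on the log2 scale. Of the 11, 7 were not called, 6 had a positive log2 fold change, and the median was 0.05. The summed level of the 11 was 1462 to 1740 CPM in ONC-S and 1659 to 1876 in the other 12 libraries, and its part in Gnb3 was not tested. Gnat2, the cone transducin alpha subunit gene, read 177, 195 and 174 CPM in the WT libraries, 172, 145 and 154 in ONC, 169.9, 166 and 173 in ONC-F, 169, 150.3 and 163 in ONC-J and 163, 134 and 141 in ONC-S. It was called lower in ONC-S against WT (-0.32 ± 0.07, adjusted p = 0.00363, edgeR's quasi-likelihood test), without overlap, and not against ONC (-0.10 ± 0.07). Cngb3, the cone channel's modulatory subunit gene, read 19.1, 18.0 and 20.2 CPM in the WT libraries, 18.4, 15.1 and 17.0 in ONC, 18.3, 14.7 and 19.2 in ONC-F, 16.8, 14.7 and 17.1 in ONC-J and 16.3, 14.4 and 13.5 in ONC-S. Its ONC-S libraries were all below those of WT, and it was called lower against WT (-0.38 ± 0.11, adjusted p = 0.0166, edgeR's quasi-likelihood test). This was lost without WT library 3 (adjusted p = 0.0694, edgeR), ONC-S library 2 (0.0502) or ONC-S library 3 (0.0827). The last 3 cone genes, Gngt2 (0.02 ± 0.08), Cnga3 (0.20 ± 0.12) and Slc24a2 (-0.04 ± 0.06), were called in no comparison. The summed level of the 11 cone genes was 1732 to 1768 CPM in ONC-S and 2038 to 2321 in the other 12 libraries.

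The 6 shared genes called higher in ONC-S against ONC were Rgs9, Rgs9bp, Gnb5, Gucy2e, Guca1a and Grk1, and Guca1b, Gucy2f and Rcvrn were not called. RGS9, its anchor R9AP and the Gnb5 product form the complex that speeds GTP hydrolysis by transducin, and all 3 of their genes were called higher against ONC. Whole-retina values do not show which cells held these transcripts. Rgs9 read 715, 792 and 749.5 CPM in the WT libraries, 764, 681 and 782 in ONC, 842, 678 and 829.7 in ONC-F, 812, 925 and 803 in ONC-J and 1069, 1038 and 952 in ONC-S. The ONC-S libraries were the 3 highest. For Rgs9 the log2 fold change was 0.46 ± 0.08 (adjusted p = 0.000821, edgeR's quasi-likelihood test). Rgs9bp, the gene of R9AP, read 1065, 1228 and 1112 CPM in the WT libraries, 1052, 951 and 1205 in ONC, 1101, 1091 and 1108 in ONC-F, 1064, 1010.5 and 1141 in ONC-J and 1357, 1359 and 1238 in ONC-S. Again the ONC-S libraries were above the other 12, and the log2 fold change was 0.30 ± 0.07 (adjusted p = 0.0103, same test).

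Gucy2e, the main retinal guanylate cyclase gene, read 862, 869.9 and 788 CPM in the WT libraries, 869.9, 732 and 833 in ONC, 890.0, 760.1 and 775 in ONC-F, 888, 774 and 792 in ONC-J and 1066, 1052 and 977 in ONC-S. The ONC-S libraries lay above all others. Its log2 fold change was 0.35 ± 0.07 (adjusted p = 0.00374, edgeR's quasi-likelihood test), while the second cyclase gene, Gucy2f, gave 0.08 ± 0.09 and was not called. Grk1, the kinase that phosphorylates active photopigment before arrestin binds, read 2338, 2399 and 2294 CPM in the WT libraries, 2323, 2178 and 2366 in ONC, 2433, 2136 and 2335 in ONC-F, 2414, 2125 and 2302 in ONC-J and 2896, 2677 and 2504 in ONC-S. The ONC-S libraries were the highest, and the log2 fold change was 0.23 ± 0.07 (adjusted p = 0.0218, edgeR's quasi-likelihood test). Without ONC library 2 the adjusted p by edgeR was 0.0874 for Grk1 and 0.0609 for Rgs9bp, and without ONC-S library 2 it was 0.0615 and 0.0543. Without ONC-S library 1 that of Grk1 was 0.111. Rcvrn, the gene of recoverin, a calcium sensor that restrains this kinase, read 699, 785 and 733 CPM in the WT libraries, 747, 702 and 784 in ONC, 670.1, 713 and 768 in ONC-F, 666, 556 and 736 in ONC-J and 872, 835 and 823 in ONC-S. The ONC-S libraries were above the other 12. For Rcvrn the log2 fold change was 0.18 ± 0.08 against ONC (adjusted p = 0.142, edgeR's quasi-likelihood test) and 0.26 ± 0.06 against the other injured groups (adjusted p = 0.00631). Rcvrn overlaps Glp2r on the opposite strand.

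Pdc went the other way. Its product, phosducin, binds the beta and gamma subunits of transducin. Pdc read 1853, 2175 and 1856 CPM in the WT libraries, 1556, 1594 and 1927 in ONC, 1476, 2056 and 2095 in ONC-F, 1499.8, 1705 and 2138 in ONC-J and 1364, 1051 and 969 in ONC-S. All 3 ONC-S libraries were below the other 12, and the spread within each injured group was wide. The log2 fold change against ONC was -0.59 ± 0.14 (adjusted p = 0.00952, edgeR's quasi-likelihood test), and without ONC library 3 the adjusted p was 0.0541. Against WT it was -0.80 ± 0.14 (adjusted p = 0.000529). The retinoid cycle genes, Abca4, which moves retinoids out of the discs, and the retinol dehydrogenase genes Rdh8 and Rdh12, gave 0.19 ± 0.08, 0.12 ± 0.07 and 0.09 ± 0.06 in ONC-S against ONC, and none was called. Abca4 was called higher against the other injured groups (0.21 ± 0.07, adjusted p = 0.0337, edgeR's quasi-likelihood test), a call lost without ONC-F library 2 (0.0532), ONC-J library 2 (0.0502), ONC-S library 1 (0.258) or ONC-S library 2 (0.146). It was also lost with total counts, with only the groups compared, with log2 FPKM and with the length offset, and with the GC and length offset the log2 fold change of Abca4 was 0.10 (adjusted p = 0.237, edgeR). The structural genes Prph2 (0.01 ± 0.06) and Rom1 (-0.05 ± 0.06) and Crx (0.12 ± 0.05) were not called against ONC.

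To compare rods with cones directly, the log2 ratio of the FPKM of a rod gene to that of its cone counterpart was taken in each library for 10 pairs, and the 3 ONC-S libraries were compared with the 9 other injured libraries by a two-sided exact permutation test. With 220 splits the smallest possible p is 0.00455. At an adjusted p under 0.05 over the 10 pairs, the ratio was higher in ONC-S for 6 pairs and lower for 1. Several of these genes also enter the counts above, so the ratios are not separate evidence.

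The log2 ratio of Sag to Arr3 was 2.39, 2.59 and 2.67 in the ONC-S libraries and 1.42 to 1.84, with a median of 1.66, in the other 9 injured libraries. The groups did not overlap, and WT libraries were lower still at 1.15 to 1.23. The difference of means was 0.91 (exact p = 0.00455, adjusted p = 0.0114), and 3 further pairs had the same p and no overlap. They were Pde6a to Pde6c, with a difference of 0.50, Cngb1 to Cngb3, with 0.48, and Pde6g to Pde6h, with 0.30. The log2 ratio of Pde6a to Pde6c was 3.90, 4.02 and 3.96 in the ONC-S libraries and 3.28 to 3.70, with a median of 3.44, in the other 9 injured libraries. That of Cngb1 to Cngb3 was 5.32, 5.40 and 5.44 in the ONC-S libraries and 4.71 to 5.03, with a median of 4.88, in the other 9 injured libraries. For Pde6g to Pde6h it was 5.87, 5.89 and 5.73 in the ONC-S libraries and 5.39 to 5.60, with a median of 5.52, in the other 9 injured libraries. Pde6g itself gave -0.09 ± 0.05 in ONC-S against the other injured groups and was not called.

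Smaller shifts with overlapping groups were seen for Gnat1 to Gnat2 (0.16, exact adjusted p = 0.0227) and Slc24a1 to Slc24a2 (0.20, exact adjusted p = 0.0325). Neither pair passed when any 1 of the 3 ONC-S libraries was left out, and without ONC-S library 2 the difference for Gnat1 to Gnat2 was 0.08 (exact adjusted p = 0.136). That of Slc24a1 to Slc24a2 did not pass without ONC library 3 or ONC-J library 1 either (exact adjusted p = 0.0606 for both). Gngt1 to Gngt2 went the other way, with a log2 ratio of 2.62, 2.68 and 2.74 in the ONC-S libraries and 2.73 to 2.94, with a median of 2.86, in the other 9 injured libraries, and a difference of -0.16 (exact adjusted p = 0.0182). It did not pass without ONC-S library 1 (exact adjusted p = 0.0682) or ONC-S library 2 (0.0727). Without an ONC-S library there are fewer splits, and the smallest possible p is larger. Losses there alone therefore do not separate a weaker difference from a smaller test. The remaining pairs did not pass: Pde6b to Pde6c differed by 0.25 and Cnga1 to Cnga3 by -0.16 (both exact adjusted p = 0.0606), and Gnb1 to Gnb3 by 0.36 (exact adjusted p = 0.0727), the last with ONC library 2 far below the others at 1.24.

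**Figure D3:**
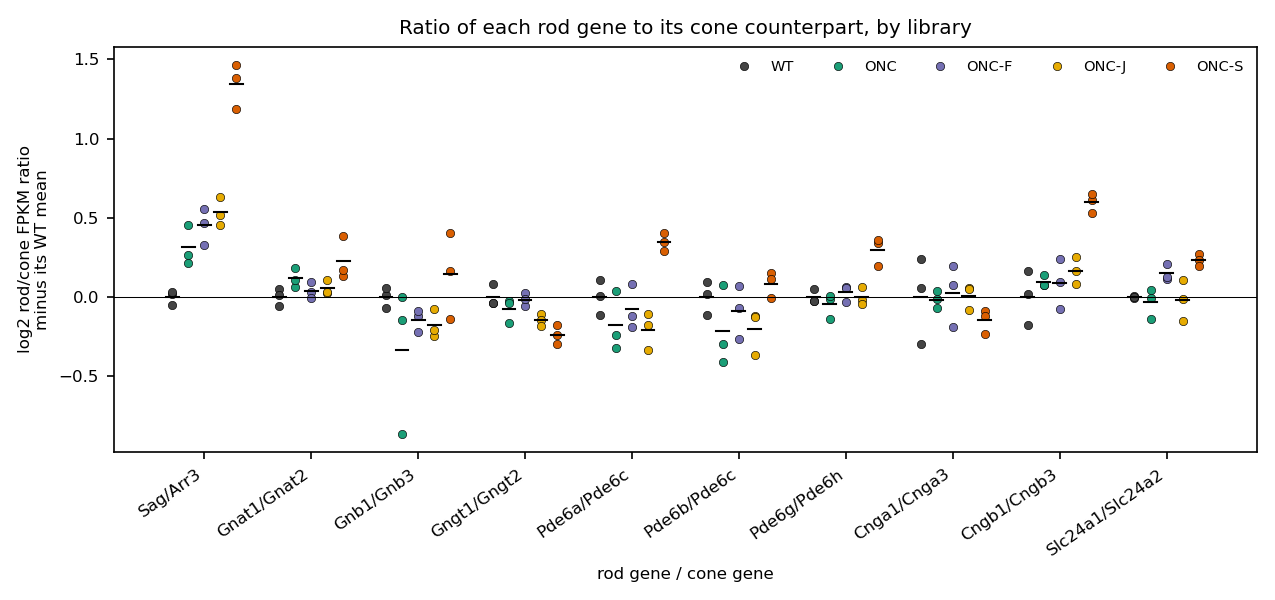
Log2 ratio of rod to cone FPKM minus its WT mean (vertical axis) for 10 gene pairs (horizontal axis). Each point is a library and each line a group mean. ONC-S stands above the other injured libraries without overlap for Sag/Arr3, Pde6a/Pde6c, Pde6g/Pde6h and Cngb1/Cngb3, and for Gngt1/Gngt2 its mean is 0.16 below theirs.

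The promoters of members that moved in each direction are shown because CRX acts in both rods and cones. The RefSeq table (GRCm38.p6) holds 29 of the 39 members, each from 250 bases before to 50 bases after the start of the transcript. Searched on both strands, TAATCC, a core that CRX binds, was found in 11 of the 29 (37.9%), against 7.06% of all 32851 promoters of the same length. It was in 4 of 9 rod, 1 of 7 cone and 6 of 13 shared promoters. TGCTGA, a part of the NRL site, was found in 7 of the 29 (24.1%), against 19.5% of all promoters, and no match overlapped one of TAATCC. By call in ONC-S against ONC, TAATCC was in 5 of 9 promoters of members called higher, 0 of 4 called lower and 6 of 16 not called. Grk1, Nr2e3, Rgs9 and Slc24a1 were called higher and had no match, and Gngt1 and Gnat2, called lower against WT, had one. Of the promoters printed, those of Sag, Cngb1, Guca1a and Gucy2e, called higher, were taken for their matches, and Arr3 and Pde6h were called lower, so the 6 are not a sample of the members. Sequences run 5′ to 3′ on the strand of the gene, and capitals mark TAATCC or its reverse complement GGATTA, and TGCTGA or TCAGCA.
Sag, plus strand, chr1:87803430-87803729: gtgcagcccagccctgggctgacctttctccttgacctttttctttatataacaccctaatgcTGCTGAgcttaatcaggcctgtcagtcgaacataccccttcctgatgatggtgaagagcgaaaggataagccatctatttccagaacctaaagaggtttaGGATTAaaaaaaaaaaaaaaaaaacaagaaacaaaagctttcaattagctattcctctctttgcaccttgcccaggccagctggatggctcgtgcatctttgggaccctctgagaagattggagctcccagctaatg
Cngb1, minus strand, chr8:95306536-95306835: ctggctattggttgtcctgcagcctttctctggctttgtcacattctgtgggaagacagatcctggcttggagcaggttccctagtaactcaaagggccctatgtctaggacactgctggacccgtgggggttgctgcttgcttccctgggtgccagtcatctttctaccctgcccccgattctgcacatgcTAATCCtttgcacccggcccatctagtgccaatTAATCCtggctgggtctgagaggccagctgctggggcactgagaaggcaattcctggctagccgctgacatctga
Guca1a, minus strand, chr17:47400557-47400856: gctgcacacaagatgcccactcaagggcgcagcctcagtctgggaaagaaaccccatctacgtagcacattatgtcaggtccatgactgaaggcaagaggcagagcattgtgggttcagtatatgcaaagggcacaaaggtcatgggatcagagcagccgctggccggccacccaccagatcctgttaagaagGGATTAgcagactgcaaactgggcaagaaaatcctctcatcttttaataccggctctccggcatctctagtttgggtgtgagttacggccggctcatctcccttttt
Gucy2e, minus strand, chr11:69236973-69237272: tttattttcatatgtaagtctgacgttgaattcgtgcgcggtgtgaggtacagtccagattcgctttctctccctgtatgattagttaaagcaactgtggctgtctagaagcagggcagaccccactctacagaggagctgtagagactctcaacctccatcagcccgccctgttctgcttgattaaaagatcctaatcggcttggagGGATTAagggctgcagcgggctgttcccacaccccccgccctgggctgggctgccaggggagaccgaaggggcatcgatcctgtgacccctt
Arr3, plus strand, chrX:100605247-100605546: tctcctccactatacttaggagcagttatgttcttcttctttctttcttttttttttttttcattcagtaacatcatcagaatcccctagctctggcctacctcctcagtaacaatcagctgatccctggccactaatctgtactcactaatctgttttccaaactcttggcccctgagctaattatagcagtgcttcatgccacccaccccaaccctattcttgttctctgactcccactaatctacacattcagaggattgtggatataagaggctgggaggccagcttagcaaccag
Pde6h, plus strand, chr6:136954273-136954572: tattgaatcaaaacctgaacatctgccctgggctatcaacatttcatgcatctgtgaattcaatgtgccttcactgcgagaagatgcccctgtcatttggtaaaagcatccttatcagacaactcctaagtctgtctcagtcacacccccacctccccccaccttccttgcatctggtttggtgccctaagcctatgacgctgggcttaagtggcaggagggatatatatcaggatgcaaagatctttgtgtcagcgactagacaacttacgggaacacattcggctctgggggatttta
The CRX core stood 87 bases before the start in Sag, 58 and 25 in Cngb1, 57 in Guca1a and 42 in Gucy2e. Neither the Arr3 nor the Pde6h window held either motif, and the windows of Nr2e3 and Pdc, which moved in opposite directions, held neither as well. A match is a run of letters and not a measured site. Other forms of either site were not searched, so a window without a match may still hold one.

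Other photoreceptor genes gave a setting for these values. In ONC-S against ONC, where 7.6% of all genes were called higher and 6.89% lower, 7 of 17 tested genes of photoreceptor structure were called higher and 1 lower, among them Rbp3, the retinoid carrier between photoreceptors and pigment epithelium (0.40 ± 0.07), Cdhr1, an outer segment cadherin (0.39 ± 0.07), and Rp1l1, an axoneme protein gene (0.39 ± 0.08). Of 18 genes of photoreceptor support and channels 4 were higher and 2 lower, with Cnnm4 at 0.37 ± 0.06, Nxnl2 at -0.35 ± 0.07 and Rd3, whose product controls guanylate cyclase, at 0.26 ± 0.06. Of 14 genes of the photoreceptor synapse 4 were higher and 0 lower, led by Bsn, the gene of the ribbon protein bassoon (0.55 ± 0.08). Of 7 further cone-enriched genes 0 were higher and 1 lower, Kcne2 (-0.31 ± 0.08), and their summed level was 423 to 475 CPM in ONC-S against 408 to 471 in the other 12 libraries. These ranges overlapped, unlike those of the 11 cone phototransduction genes.

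Markers of other cells and of daily rhythm were read beside the ONC-S differences. In the same contrast, with 7.6% of all genes called higher and 6.89% lower, 2 of 13 pigment epithelium genes were called lower and 0 higher, Tyr (-1.48 ± 0.32) and Stra6 (-0.59 ± 0.17). The log2 fold change was negative for 12 of the 13, with a median of -0.54. Against the other injured groups 7 of the 13 were called lower, beside 10.3% of all genes, with a median of -0.75. In ONC-S against ONC-F and against ONC-J 7 were also called lower, beside 7.03% and 6.28% of all genes. The list had a summed level in ONC-S of 96.9 to 137 CPM against 113 to 271 in the other 12 libraries. The summed level of 12 Mueller glia genes was 4833 to 5459 CPM in ONC-S and 5043 to 5713 in the other 12 libraries, that of 12 reactive glia genes 253 to 642 and 242 to 825, and that of 12 microglia genes 70.2 to 95.5 and 65.1 to 110.1. These ranges overlapped. That of 16 lens genes was 4.0 to 5.62 CPM in ONC-S and 4.69 to 2869 in the others, and the part of lens RNA in the photoreceptor values was not tested. Of 17 clock and light-responsive genes 4 were higher and 2 lower, with Per2 at -0.66 ± 0.08, Nr1d1 at 0.34 ± 0.07 and Cry2 at 0.29 ± 0.06. The hour of collection is not given in the labels. The part of pigment epithelium or of the hour of collection in the photoreceptor values was not tested.

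The fold changes of the ONC-S contrasts rose somewhat with gene length. Across the 39 members Spearman's rho between log2 fold change of ONC-S against ONC and the length implied by the FPKM values was 0.289, beside 0.124 across the 19259 genes tested, and with GC content it was 0.357, beside 0.0116. For length, rho across the members was 0.319 in ONC-S against WT and 0.36 against the other injured groups, beside 0.155 and 0.139 across all genes. It was 0.425 against ONC-F and 0.381 against ONC-J, beside 0.156 and 0.12. These values describe genes that share their libraries. The rod to cone ratios were not rerun with a length offset, so the part of length in them was not tested. With an offset for gene length the same contrast called 5 rod genes higher, 3 cone genes lower and 7 shared genes higher, and Opn1sw was the cone gene no longer called (adjusted p = 0.0753, edgeR).

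**Figure D4:**
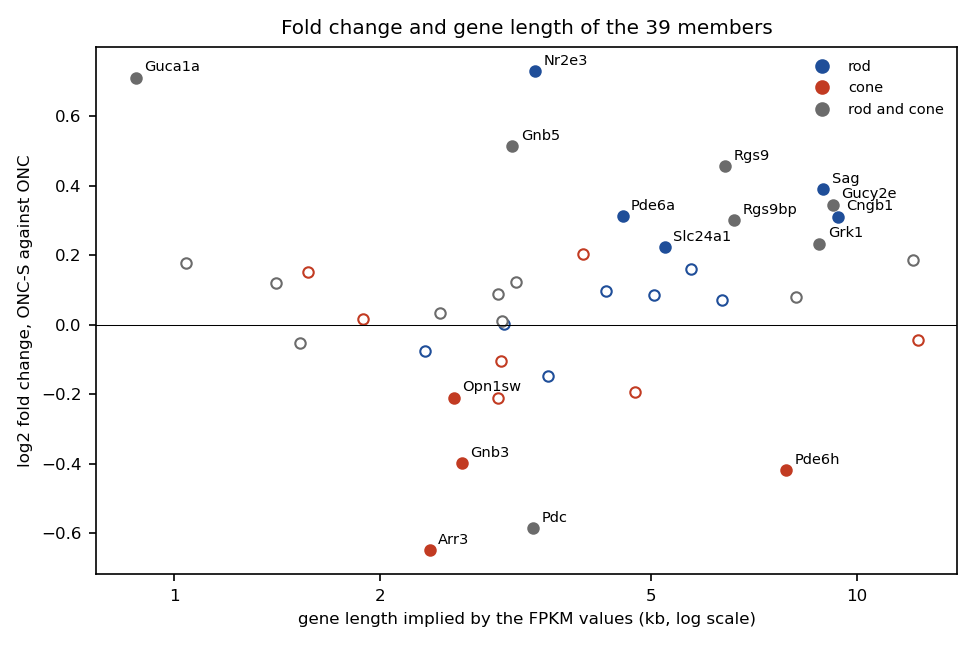
Log2 fold change of ONC-S against ONC (vertical axis) against gene length implied by the FPKM values in kb (horizontal axis, log scale) for the 39 members. Filled, named points are called. Guca1a, at 0.71, is the shortest member, and Pde6h, at -0.42, is among the long ones.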

How the data were processed

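Poly-A RNA of 15 retinal libraries was sequenced from both ends. The authors aligned the reads to mm10 with HISAT2 2.0.5 and made the count values with featureCounts v1.5.0-p3, raw fragments per gene. The deposited FPKM values were made by the authors from the counts, with 1 length per gene and 1 factor per library. The annotation release and strand setting are not given in the sources used here. Symbols were matched by gene ID for 54409 of 54532 genes, and coordinates of overlapping genes come from GENCODE M21.

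The members and gene lists were chosen with earlier results of these data known. Genes were kept by filterByExpr (minimum count 10, minimum total 15), which left 19259 genes with 99.84% to 99.89% of counts, and fitted in 1 quasi-likelihood model of edgeR 4.0.16 with TMM sizes (factors 0.966 to 1.03) and 10 residual degrees of freedom. The p-values were adjusted by Benjamini-Hochberg over the tested genes. The comparison with the other injured groups used the mean of their 3 coefficients. Pair ratios were tested by listing every split of the libraries in Python with numpy 2.4.6. Libraries of a group differed beyond counting noise (chi-square per degree of freedom 2.95 to 8.3). Values per library were given for called members, at most 8 of a class by smallest p in ONC-S against ONC, and up to 3 genes of each further list were named by the same p. On simulated counts of 18938 genes for ONC-S against ONC, 84 of 100 genes changed by 1 on the log2 scale and 56 of 100 changed by 0.5 were called, with 8 false calls. The simulation gave every gene the same spread and changed genes drawn at random. These counts therefore do not measure how many calls were missed or false in the data. Alternatives were DESeq2 1.42.0, limma 3.58.1 (voom weights, and log2 FPKM with pseudocounts of 1 and 0.1), other scalings and filters, only the groups compared, a replicate block, a length offset and leaving out each library. GC offsets were chosen after seeing the data. R 4.3.3 and Python 3.11.15 were used.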

Additional observations from a re-analysis of the deposited data

How the results depend on the processing

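No called result turned its direction under any alternative that was run. The share of all genes called is given for the main fit only, so counts under these settings have no share beside them. In ONC against WT, 1 cone member was lower with DESeq2, voom weights or the replicate block. With no filter on low counts that contrast had 1 rod, 3 cone and 1 shared member lower and 1 cone member higher, ONC-F against ONC had 2 rod, 1 cone and 2 shared members higher, and ONC-J against ONC had 2 rod and 1 cone member higher. DESeq2 and the replicate block each gave 2 shared members higher in ONC-F against ONC. In ONC-J against ONC the shared members higher fell from 2 to 1 with the GC offset and to 0 with only the groups compared, the length offset, the GC and length offset or either log2 FPKM scale. Both log2 FPKM scales gave 2 cone members lower in ONC-S against ONC and 3 against the other injured groups, where the GC and length offset also gave 3. In ONC-S against WT, 1 rod member was lower with the length offset, the GC and length offset or either log2 FPKM scale, and 2 shared members were lower with total counts. In that contrast Cngb1 was not called with upper quartile factors, total counts, the 1 CPM filter, the length offset, the GC and length offset or either log2 FPKM scale, and Grk1 and Rgs9bp were not called with upper quartile factors or either length offset, nor Rgs9bp on either log2 FPKM scale. In ONC-S against ONC with only the groups compared, Slc24a1 (adjusted p = 0.0672, edgeR) and Gnb3 (0.0686) were not called. Against the other injured groups 2 shared members were lower with DESeq2, voom weights, total counts or no filter. The labels do not say that a replicate number marks a shared repeat or day, and whether it does is not known. Deviations of libraries with the same number correlated between -0.0909 and 0.182 (median 0.0266, 3 of 30 pairs over 0.1), and those with different numbers between -0.157 and 0.2 (median -0.0184, 3 of 60 over 0.1). The cause of these shifts was not tested.

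Leaving out 1 library at a time gave 0 to 1 cone members lower in ONC against WT, 0 to 1 shared members higher in ONC-F against ONC and 0 to 2 in ONC-J against ONC. In ONC-S against ONC it gave 3 to 5 rod members higher, 2 to 4 cone members lower, and 4 to 7 shared members higher and 0 to 1 lower. In ONC-S against WT it gave 2 to 5 rod members higher and 1 to 2 lower, 4 to 5 cone members lower and 4 to 7 shared members higher. Against the other injured groups it gave 4 to 5 rod members higher and 0 to 1 lower, 3 to 6 cone members lower, and 5 to 8 shared members higher and 1 to 2 lower. The rod to cone ratio was higher for 4 to 8 pairs, and for 4 whichever ONC-S library was left out. Without an ONC-S library the test has fewer splits and a larger smallest possible p.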
